A study of Mus musculus with 2 samples.

Results

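Alveolar-primed luminal progenitor cells are secretory luminal cells of the mouse mammary gland that hold RNA of Cck or Lalba without high MHC class II. They were picked from single-cell RNA-seq by their unique molecular identifiers (UMIs, 1 for each captured RNA molecule). Among barcodes with at least 500 genes and at most 15% mitochondrial UMIs, a secretory luminal cell had at least 10 UMIs of Krt8 and Krt18 together, more than of Krt5, Krt14 and Krt17, and no Ptprc. Its sum of Ltf, Wfdc18, Csn3, Aldh1a3 and Plet1 also exceeded 2 times that of Prlr, Areg, Cited1 and Ptn. Of these cells, those with at least 3 UMIs of Cck and Lalba together and fewer than 5 of Cd74, H2-Aa, H2-Ab1 and H2-Eb1 were taken. The library labelled Ctrl held 1078 such cells and that labelled CL 760, together 1838 of the 15632 cells kept.

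The mammary gland makes milk in alveoli, which form from luminal progenitor cells under progesterone, prolactin and the transcription factors STAT5 and ELF5. Even in adult virgin females some luminal progenitor cells carry low levels of milk protein RNA, and such cells are called alveolar-primed. Lalba encodes alpha-lactalbumin, the milk protein that directs galactosyltransferase to lactose synthesis. Cck encodes cholecystokinin, a peptide hormone best known from the gut and brain.

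The study compared the mammary cells of control mice with those of mice given clodronate liposomes (CL), which kill the macrophages that ingest them. Both groups were adult wild-type females, of 9 to 10 weeks by the sample labels and 8 to 10 weeks by the protocol, and CL was given by repeated intraperitoneal injection. Cells of both groups were sorted by flow cytometry as negative for the endothelial marker CD31 and the erythroid marker TER119, with CD45+ immune cells added. Each group is 1 library, and the number of mice pooled, the strain used for these libraries and the ratio in which sorted fractions were mixed are not given in the sources used here. There is thus no replicate, and no difference between the libraries was tested: the 95% intervals given in brackets are exact (Clopper-Pearson for shares, conditional binomial for log2 ratios) and cover counting error only.

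The libraries held 118743318 UMIs (Ctrl) and 155765480 UMIs (CL), and 6297 and 9335 cells were kept. Macrophage RNA was not lower in the library labelled CL: 0.762% [0.563, 1.01] of kept cells in Ctrl and 1.77% [1.51, 2.06] in CL had at least 3 UMIs of Csf1r, C1qa, C1qb and Adgre1 together, shares that the unstated mixing of fractions can set. Of cells with Ptprc, the pan-immune gene, they were 12.1% in both libraries. The libraries shared 22 candidate barcodes, which held 2 Ctrl and 3 CL alveolar-primed cells, and no barcode was alveolar-primed in both.

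The 5 genes that mark the cells lie on GRCm38 as follows in the GENCODE annotation. Cck is at chr9:121489824-121495694 and Lalba at chr15:98480400-98482721, both on the minus strand. Csn3, the kappa-casein gene, is at chr5:87925579-87932665 on the plus strand. Slc28a3, a nucleoside transporter gene, is at chr13:58545399-58610877 and Aldh1a3, a retinaldehyde dehydrogenase gene, at chr7:66390890-66427517, both on the minus strand. The bases just before the start of both genes of the gate are shown because they carry the RNAs by which the cells were chosen (RefSeq promoters, GRCm38.p6, read 5′ to 3′ on the minus strand). Capitals mark the only motif found, an E-box (CACGTG), 66 to 61 bases before the Cck start. The Cck stretch is chr9:121495695-121495944 and the Lalba stretch, without the bases that GENCODE places inside the gene, chr15:98482722-98482933.
Cck: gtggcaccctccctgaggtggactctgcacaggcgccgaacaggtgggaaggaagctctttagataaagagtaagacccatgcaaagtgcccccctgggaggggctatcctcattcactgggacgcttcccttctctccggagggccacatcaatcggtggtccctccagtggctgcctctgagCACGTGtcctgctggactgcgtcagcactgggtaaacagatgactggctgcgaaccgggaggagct
Lalba: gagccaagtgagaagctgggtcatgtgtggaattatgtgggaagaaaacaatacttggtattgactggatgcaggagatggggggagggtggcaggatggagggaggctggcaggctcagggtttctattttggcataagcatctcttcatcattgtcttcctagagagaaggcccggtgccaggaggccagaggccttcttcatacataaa

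Motifs were searched on both strands in the 250 bases before each start: the STAT site TTCNNNGAA, the TATA box TATAAA, the AP-1 site TGANTCA and the E-box CACGTG. Of 32817 promoters of the same length, 7.01% held the STAT letters, 12.4% the TATA letters, 6.75% the AP-1 letters and 6.02% the E-box. The 250 bases before Lalba, of which 212 are printed, held none of these letters, which says nothing of the factors themselves.

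The 2 genes of the gate were not equally common. Of the alveolar-primed cells, 727 (67.4%) in Ctrl and 575 (75.7%) in CL held Cck and no Lalba. Cells with both genes were 316 (29.3%) and 164 (21.6%), and cells with Lalba and no Cck were 35 (3.25%) and 21 (2.76%). The cells were thus mainly defined by Cck, with Lalba in 32.6% [29.8, 35.4] of Ctrl and 24.3% [21.3, 27.6] of CL members. The median member held 6 UMIs of both genes together in Ctrl (quartiles 4 and 10, highest 75) and 5 in CL (quartiles 4 and 9, highest 88).

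Summed over the cells of a kind and scaled to CPM (UMIs of a gene per 1000000 UMIs of those cells), Cck stood at 482 CPM in Ctrl and 456 CPM in CL members, and Lalba at 111 and 75.4 CPM. In the other secretory luminal cells under the same MHC class II limit, called low progenitors here (1668 in Ctrl, 2515 in CL), Cck was at 46.6 and 33.4 CPM and Lalba at 4.53 and 3.04 CPM. These gaps are what the gate selects. Free RNA was present as well: droplets of 100 to 300 UMIs, too few for a cell, held Cck at 48.7 and 29.1 CPM and Lalba at 8.07 and 4.32 CPM. The low progenitors were therefore close to or below the free RNA level of both genes, whereas hormone-responsive luminal cells (7.54 and 6.62 CPM of Cck) lay under it.

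Classes that should lack both genes rarely reached the gate. At least 3 UMIs were found in 1.23% of Ctrl and 0.949% of CL hormone-responsive cells, at medians of 20192.5 and 17150.5 UMIs a cell, deeper than the members (11624.5 and 10870.5). Basal cells gave 1.77% and 0.478%. Among immune cells it was 0 of 262 and 0 of 924, which allows up to 1.40% and 0.398% by the exact interval. With each cell thinned to 5435 UMIs (238 Ctrl and 407 CL secretory cells were shallower and left out), at least 1 UMI of either gene was seen in 52.8% and 35.5% of secretory cells, against 3.27% and 2.98% of hormone-responsive, 4.09% and 2.89% of basal and 1.79% and 0.253% of immune cells.

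The cells just inside the limit and just outside it had similar Csn3 and Trf levels. With exactly 3 UMIs (186 Ctrl and 179 CL cells), Csn3 was at 3939 and 2966 CPM and Trf, the transferrin gene, at 950 and 770 CPM. With exactly 2 UMIs (266 and 231 cells), Csn3 was at 3896 and 2872 CPM and Trf at 940 and 852 CPM. Slc28a3 was at 41.6 and 113 CPM with 3 UMIs and at 65.8 and 86.9 CPM with 2, lower inside the limit in Ctrl and higher in CL.

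The share of alveolar-primed cells was lower in the library labelled CL. Of secretory luminal cells, it went from 39.0% [37.2, 40.9] in Ctrl to 18.7% [17.5, 19.9] in CL, a log2 ratio of -1.06 [-1.2, -0.93]. Of luminal cells it went from 21% to 10.6%, and of all kept cells from 17.1% to 8.14%. All 3 denominators gave a lower share, with intervals that did not overlap between the libraries.

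The MHC class II limit of the rule bears on the size of this difference. Secretory cells past that limit went from 0.615% (17 cells) in Ctrl to 19.5% (795 cells) in CL. Of those cells, 7 of 17 and 146 of 795 (18.4%) had at least 3 UMIs of Cck and Lalba and would have been members without the limit. Counting them in, the share went from 39.3% to 22.3% (log2 -0.82 [-0.95, -0.69]). Taken only among cells under the limit, it went from 39.3% to 23.2% (log2 -0.76 [-0.89, -0.62]). Of all secretory luminal cells, the share of low progenitors was alike, at 60.4% in Ctrl and 61.8% in CL. Among cells under the limit, low progenitors are all cells that are not members, so there their share was higher in CL.

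The share was lower in CL at matched depth too. At 5435 UMIs in every cell, 22.8% of Ctrl and 12.5% of CL secretory cells kept at least 3 UMIs of the pair without the MHC class II limit (log2 -0.86), and 22.7% and 11.1% with it (log2 -1.03). Each gene was also lower by itself. Cck reached 3 UMIs in 35.8% of Ctrl and 20.4% of CL secretory cells (log2 -0.81 [-0.94, -0.67]), and Lalba in 6.48% and 2.29% (log2 -1.50 [-1.88, -1.13]). At 3 UMIs the interval of Lalba lay below that of Cck, and at 5 UMIs they overlapped (Cck -1.0 [-1.18, -0.83], Lalba -1.52 [-2.02, -1.04]).

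**Figure D1:**
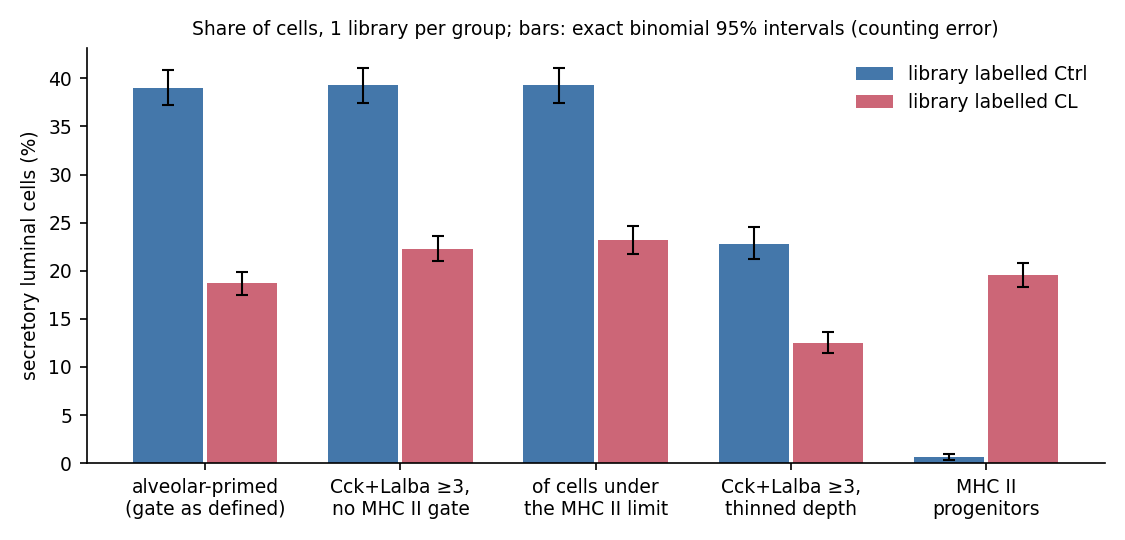
Share of secretory luminal cells (%, y axis) in the library labelled Ctrl (blue) and CL (red), under the rule, without its MHC class II limit, among cells under that limit, after thinning to one depth, and for the MHC class II progenitors; black bars are exact binomial 95% intervals of counting error. The alveolar-primed share was lower in CL under each of the 4 ways of counting (39.0% to 18.7% under the rule), and MHC class II progenitors went from 0.615% to 19.5%.

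Within the alveolar-primed cells the gate itself holds both genes up, Cck above all, so their levels there are a description of the choice. Cck went from 482 to 456 CPM (log2 -0.08 [-0.13, -0.03]), and Lalba went from 111 to 75.4 CPM (log2 -0.56 [-0.68, -0.44]). Over all secretory luminal cells, which no Cck or Lalba limit chose, Cck went from 249.9 to 138 CPM (log2 -0.86) and Lalba from 54.6 to 19.9 CPM (log2 -1.45). The droplets of 100 to 300 UMIs moved the same way for both genes, and the part of free RNA in these levels was not tested.

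Beside the low progenitors, the alveolar-primed cells had more RNA of a small set of genes in both libraries. A gene was counted where it passed 2-fold in the same direction in Ctrl and in CL, among 7319 genes that had 10 CPM and 50 UMIs or more in the higher kind of cell. Only 6 genes were higher, 0.082% of those compared, and 2 were lower, 0.0273%. Of the 6, Cck and Lalba belong to the gate. The others included Cst3, Aqp1 and Spp1, and the lower ones were Cxcl10 and Palmd. Aqp1 and Palmd lie outside the rule for named genes and were chosen after their values were seen. The median gene stood at log2 -0.03 in either library. Members were deeper than low progenitors (median 11624.5 against 9085 UMIs in Ctrl, 10870.5 against 8592 in CL). With the limit set at 3 UMIs per 10000, added after seeing the data, 13 genes were higher and 37 lower. The cells were chosen by measured values, so these contrasts are descriptions.

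Cst3 encodes cystatin C, a secreted inhibitor of cysteine proteases (chr2:148871722-148875692, minus strand). It stood at 5146 CPM in Ctrl and 5212 CPM in CL members against 1549 and 1308 CPM in low progenitors, log2 1.73 [1.71, 1.75] and 1.99 [1.98, 2.01]. The difference was spread over the cells: the median member held 43 UMIs in Ctrl and 38 in CL, and the median low progenitor 7 and 6. Its lower quartile in members (16 and 17 UMIs) was close to the upper quartile in low progenitors (18 and 15 UMIs).

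Aqp1, the gene of the water channel aquaporin 1 (chr6:55336432-55348555, plus strand), was at 53.4 and 32.9 CPM in members and 12.5 and 5.96 CPM in low progenitors (log2 2.09 and 2.47). A UMI of it was seen in 23.6% of Ctrl and 16.7% of CL members, against 6.83% and 3.26% of low progenitors. The droplets of 100 to 300 UMIs were at 17.1 and 9.64 CPM, above the low progenitors and below the members.

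Spp1, the gene of osteopontin, a milk protein and cytokine (chr5:104435118-104441050, plus strand), rested on few cells. It was at 56.9 and 22.6 CPM in members and 21.5 and 10.1 CPM in low progenitors (log2 1.40 and 1.16). The 5 highest cells held 40.5% of its UMIs in Ctrl members and 80% in CL members, and it was seen in 8.63% and 3.16% of them. Without cells marked as doublets its CL log2 ratio was 0.88, under the 2-fold limit.

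The next genes passed 2-fold in at most 1 library. Btn1a1 encodes butyrophilin, which coats milk fat droplets. It was at 103.6 CPM in Ctrl and 102.8 CPM in CL members against 52.8 and 40.1 CPM (log2 0.97 and 1.36). Folr1, a folate receptor gene, had log2 ratios of 0.80 and 1.06, and Trf, whose product carries iron in plasma and milk, of 0.79 and 0.83. Trf was at 1384 and 989 CPM in members and 801 and 557 CPM in low progenitors. Lrg1, a secreted leucine-rich glycoprotein gene, had 0.79 and 0.92, Apod, the apolipoprotein D gene, 1.21 and 0.78, and Chil1, a secreted chitinase-like protein gene, 0.62 and 0.72. Ppif (0.72 and 0.82), Clic6 (0.70 and 0.90) and Cyb5a (0.62 and 0.80) were also among the 10 highest named genes.

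Named genes of at least 50 CPM were ranked by the ratio nearer 0 of the 2 libraries. The lowest in alveolar-primed cells was then Crip1, a small LIM protein gene, at 359 and 326 CPM against 660 and 648 CPM (log2 -0.88 and -0.99). In CL alone Tac1 had a lower ratio than Crip1 (log2 -1.06), but in Ctrl it was at -0.01. Free RNA of Crip1 lay above both kinds of cell, at 979 and 894 CPM in droplets of 100 to 300 UMIs. Cytip had log2 ratios of -0.77 and -0.84, Sorbs2 -0.60 and -0.59 and Osbpl3 -0.59 and -0.68. Thbs1, the thrombospondin 1 gene, was at 699.5 and 349 CPM against 1029 and 518 CPM (log2 -0.56 and -0.57). The chemokine gene Cxcl10 was low in all these cells, at 10.6 and 8.02 CPM in members and 22.3 and 18.8 CPM in low progenitors (log2 -1.07 and -1.23), at or below its 22.7 and 44.1 CPM in those droplets. Palmd had -1.07 and -1.37.

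**Figure D2:**
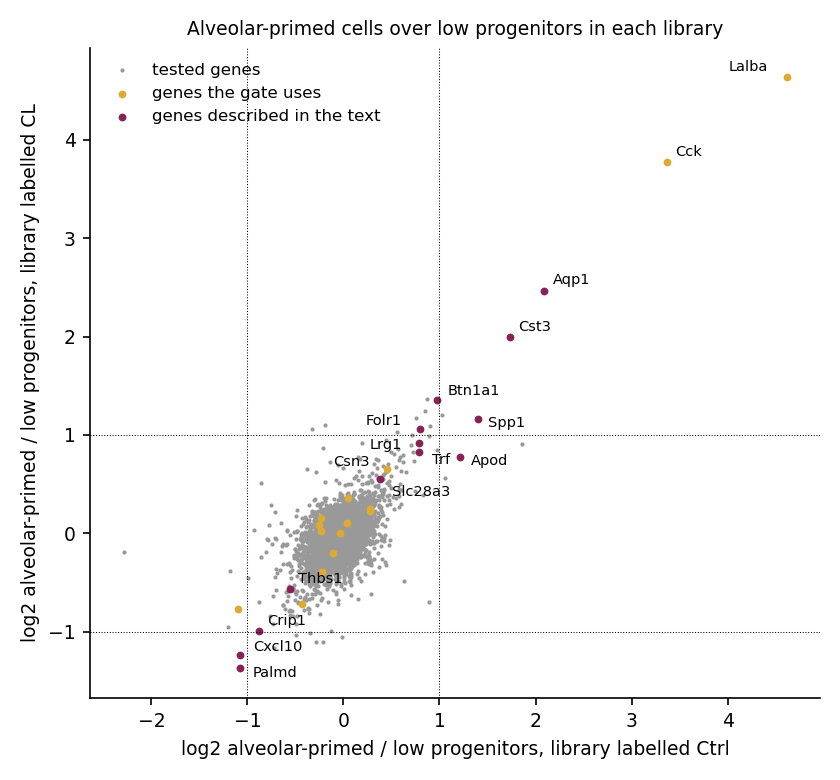
Each point is a gene, placed by the log2 ratio of alveolar-primed cells over low progenitors in Ctrl (x axis) and CL (y axis); dotted lines mark 2-fold, gold points are genes the gate uses and purple points genes described in the text. Cck and Lalba lie farthest out because they were used to choose the cells, Aqp1 and Cst3 come next, and nearly all of the 7319 genes lie within 2-fold in both libraries.

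The marker genes beyond the pair differed less. Slc28a3, the only marker the gate does not use, was at 73.7 and 127 CPM in members and 56.7 and 87.2 CPM in low progenitors (log2 0.38 [0.26, 0.50] and 0.55 [0.45, 0.65]). Csn3 and Aldh1a3 serve to choose secretory cells of both kinds. Csn3 was at 4486 and 3285 CPM against 3276 and 2081 CPM, and Aldh1a3 at 2893 and 2319 CPM against 2382 and 1983 CPM. Both were thus higher in members by less than 2-fold. The progenitor receptor gene Kit was slightly lower in members (log2 -0.22 and -0.11), and Elf5, the alveolar transcription factor gene, slightly higher (0.19 and 0.37). RNA of these progenitor genes was thus present in both kinds of cell.

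Caseins other than Csn3 were nearly absent, and so were Wap and Glycam1. Csn2, the beta-casein gene, had 0 UMIs in Ctrl members (0 of 1078 cells, which allows up to 0.342% of cells with a UMI) and 12 in CL members, all in 2 cells. Csn1s1, an alpha-casein gene, had 27 and 39 UMIs, in 10 and 9 cells, of which 1 CL cell held 22. Wap, the whey acidic protein gene, had 3 and 19 UMIs, of which 1 CL cell held 14. Csn1s2a had 24 and 27 UMIs, Csn1s2b 33 and 11, and Glycam1 0 in both. The cells therefore carried RNA of Csn3 and Trf, in part Lalba and Spp1, and few or no UMIs of these 6 genes.

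Over all 7319 genes compared, 22.1% were higher and 43.1% lower in members than in low progenitors in both libraries. By list, 4 of the 10 milk protein genes had enough RNA to compare with low progenitors and all 4 were higher in both libraries (Csn3, Lalba, Spp1 and Trf, of which the first pair is in the gate). Their median log2 ratio was 1.09 in Ctrl and 0.99 in CL. Of 12 genes of milk fat synthesis and secretion, 5 were higher and 2 lower in both libraries, with none past 2-fold in both. Plin2, which coats lipid droplets, was among those higher (log2 0.47 and 0.34), and so was Xdh, which joins butyrophilin on milk fat (0.31 and 0.34), whereas Fasn, the fatty acid synthase gene, was at -0.15 and -0.08. Of 7 genes of lactose synthesis and sugar supply, 3 were higher and 3 lower. Slc2a1, the glucose transporter gene, had 0.27 and 0.28. Of 12 genes of prolactin, STAT5 and RANK signalling, 3 were higher and 6 lower, and Socs2, a feedback inhibitor that STAT5 induces, had 0.33 and 0.31. Of 10 luminal progenitor genes, 5 were higher and 4 lower, and all 4 basal genes compared were lower (summed log2 -0.49 and -0.61). The median log2 ratios of these lists were 0.05 and 0.11 for milk fat, -0.07 and 0.15 for lactose, -0.05 and -0.10 for prolactin signalling, 0.14 and 0.05 for luminal progenitor and -0.51 and -0.81 for basal genes, beside -0.03 over all genes.

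Cst3, Trf and Fabp5 differed in how they went with Cck and with Lalba, in bins cut on the same UMIs that chose the members. Among secretory cells under the MHC class II limit that held no Lalba, Cst3 stood at 1127, 2154, 3621 and 6552 CPM in Ctrl cells with 0, 1 to 2, 3 to 5 and 6 or more UMIs of Cck. In CL the same bins held 931, 2111, 3769 and 7396 CPM. Cst3 was thus higher in every further bin of Cck in both libraries. In cells without Cck, binned by Lalba, it was 1127, 1309, 2402 and 911 CPM in Ctrl and 931, 1706, 1812 and 1971 CPM in CL. It thus reached a lower level along Lalba than along Cck, with no steady order in Ctrl and a higher level in every further bin in CL. The last pair of Lalba bins rested on few cells, 20 and 15 in Ctrl and 8 and 13 in CL, where the top Cck bin had 364 and 228.

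Trf followed Lalba more than Cck. Binned by Lalba, it stood at 726, 1684, 1917 and 2138 CPM in Ctrl and 485, 742, 1400 and 1499 CPM in CL. Binned by Cck, it stood at 726, 813, 961 and 1197 CPM in Ctrl and 485, 682, 747 and 959 CPM in CL. Trf was thus higher in each further bin of either gene, with the larger span along Lalba. The last pair of Lalba bins rested on few cells (20 and 15 in Ctrl, 8 and 13 in CL), and their intervals overlapped in both libraries. In Ctrl the intervals of the bins of 1 to 2 and 3 to 5 Lalba UMIs overlapped too. Fabp5, a fatty acid binding protein gene, reached 946 CPM in Ctrl and 615 CPM in CL in the top Lalba bin, and 207 and 173 CPM in the top Cck bin, against 181 and 146 CPM in cells with neither. It had no steady order along Lalba, with 393 and 178 CPM at 3 to 5 UMIs.

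**Figure D3:**
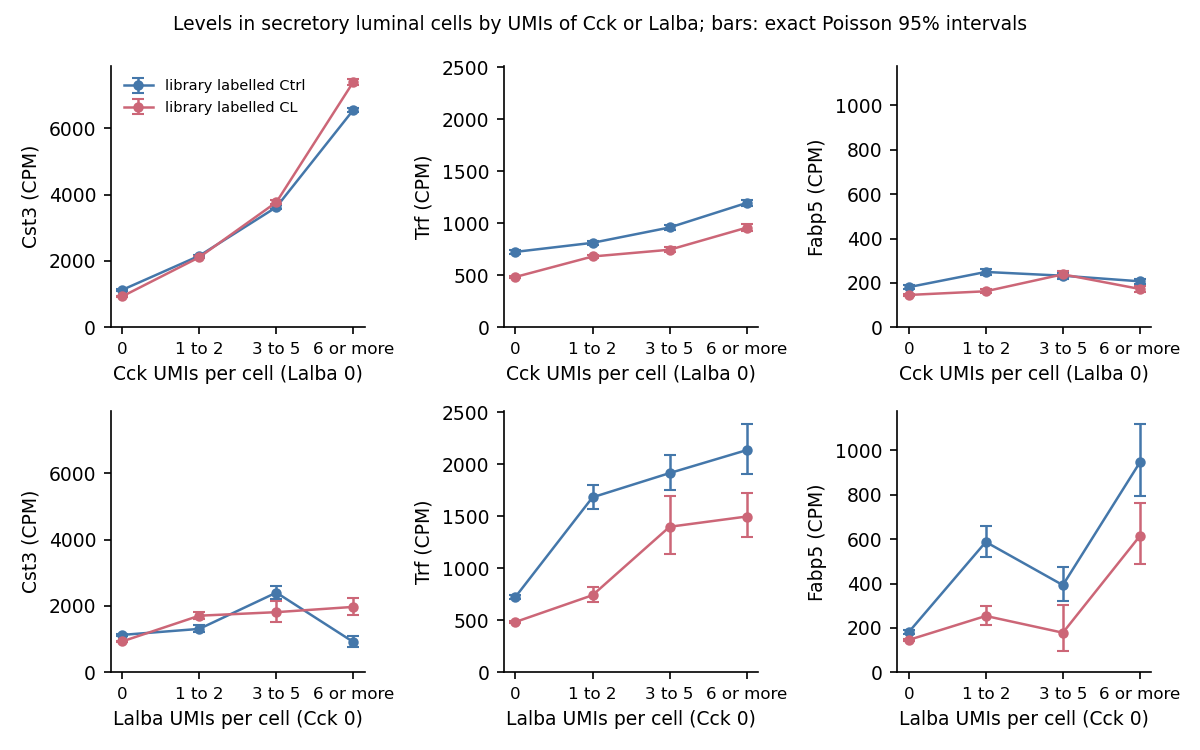
Levels of Cst3, Trf and Fabp5 (CPM, y axis; one scale for each gene) in secretory luminal cells under the MHC class II limit, binned by UMIs of Cck in cells without Lalba (top row) and by UMIs of Lalba in cells without Cck (bottom row); blue is the library labelled Ctrl, red CL, and bars are exact Poisson 95% intervals. Cst3 climbs along Cck to 6552 and 7396 CPM and ends at 911 and 1971 CPM along Lalba. Trf is higher in each further bin of both, with intervals that overlap between some Lalba bins.

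Set side by side among members, the Lalba-only cells (35 and 21) had Cst3 at 1889 and 1915 CPM and the Cck-only cells at 5185 and 5282 CPM (log2 -1.46 in both libraries). With at least 5 UMIs of one gene, which left 16 and 15 Lalba-only cells, the ratios were -2.85 and -1.80. Trf stood at 1993 and 1464 CPM against 1087 and 835 CPM (log2 0.87 and 0.81). The lipid genes Fabp5 (log2 1.41 and 1.12) and Scd1, a fatty acid desaturase gene (1.29 and 1.09), were higher in Lalba-only cells in sum, together with Chil1 (1.72 and 0.93), Sox4 (1.25 and 0.91) and the chemokine gene Cxcl1 (1.02 and 1.04). Lower there were Dcn, the decorin gene of fibroblasts (5 and 1 UMIs, log2 -3.0 and -4.19 [-9.50, -1.71]), Crip1 (-1.99 and -3.15), Adamts1 (-2.15 and -1.74) and Emp1 (-1.41 and -1.40). In CL the Scd1 RNA lay mostly in 8 cells with 3 to 5 Lalba UMIs (645 CPM, 47 UMIs), while the top Lalba bin had 75 CPM against 84.2 CPM in cells with neither gene. In Ctrl it lay mostly in the 15 cells of the top Lalba bin (666 CPM, 95 UMIs), and the 3 to 5 bin had 143 CPM against 139 CPM. Spp1 was at 26.5 CPM against 43.7 CPM in Ctrl (11 UMIs, log2 -0.72 [-1.73, 0.13]) and 160 CPM against 18.5 CPM in CL.

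Cells that held both genes were like Lalba-only cells in Trf. They stood at 2008 CPM in Ctrl and 1503 CPM in CL (log2 0.89 and 0.85 over Cck-only cells). Lrg1 (0.84 and 0.88), Crispld2 (0.93 and 0.60), Xdh (0.84 and 0.53) and Arrdc4 (0.74 and 0.53) were also higher in them. Crip1 (-1.15 and -1.54) and Timp3, a metalloprotease inhibitor gene (-0.60 and -1.41), were lower.

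Some of these genes graded with the strength of the signal inside the group. Members were ranked by UMIs of Cck and Lalba per 10000 UMIs and cut into 4 bins of equal size, whose median rates ran from 2.27 to 12.9 in Ctrl and from 2.03 to 12.8 in CL. From the lowest to the highest bin Cst3 went from 3215 to 9426 CPM in Ctrl and from 2841 to 10021 CPM in CL. Trf went from 946 to 2253 and from 594 to 1512 CPM, and Crip1 from 506 to 205 and from 485 to 157 CPM. Each of these moved in one direction through all 4 bins in both libraries. The bins use the UMIs by which the cells were chosen, so this describes the choice further. Of the 10 named genes highest over low progenitors, 6 were ordered in both libraries (Cst3, Trf, Folr1, Lrg1, Clic6 and Cyb5a). Of the 10 lowest, 3 were (Crip1, Thbs1 and Osbpl3). The share of all genes ordered in this way was not counted, so whether the named genes graded more than others was not tested. Some named genes were not ordered, such as Spp1 in Ctrl (37.0, 67.0, 100.9 and 37.2 CPM) and Apod in CL (119.8, 110.9, 73.8 and 264.7 CPM).

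The lowest bin also differed in depth and in other cells' genes. Its cells had a median of 20041 UMIs in Ctrl and 19734.5 in CL, against 9580.5 and 8371.5 in the highest. Cells marked by the doublet caller were 9.29% and 11.6% of the lowest bin and 0.741% and 0.526% of the highest. The summed hormone-responsive genes went from 1134 to 543 CPM in Ctrl and from 1760 to 553 CPM in CL. The part of these in the gradient was not tested.

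Between the libraries, genes that interferons induce were among those higher in CL alveolar-primed cells. A total of 7458 genes had 10 CPM and 50 UMIs or more in the higher of both libraries. Of these, 40 were at least 2-fold higher in CL (0.536%) and 19 at least 2-fold lower (0.255%), around a median log2 ratio of -0.02. The counts depended on the settings, with 655 higher and 1255 lower at a floor of 3 UMIs alone, 40 lower with at least 5 UMIs of the pair and 11 lower without marked doublets. Of the 40, 17 stood in the lists of interferon response or MHC class I, and 2 were class II genes of the gate. Among all 7458 genes, those lists held 12 of MHC class I, 8 of type I interferon and 10 of interferon gamma response. The lists were chosen with earlier results of these data known, so these counts are descriptions. None of the 19 was in those lists. In low progenitors, 39 of 7566 genes were higher (0.515%) and 22 lower (0.291%).

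Gbp2, the gene of an interferon-induced guanylate-binding protein (chr3:142620602-142638008, plus strand), showed the largest ratio of the named genes. It went from 13.7 CPM in Ctrl to 188 CPM in CL members (log2 3.78 [3.58, 3.99]), and from 12.8% to 50.4% of cells with a UMI. In low progenitors it went from 17.7 to 240.5 CPM (log2 3.77 [3.6, 3.93]). In the droplets of 100 to 300 UMIs it went from 36 to 285 CPM, so that Gbp2 was no higher in members than in free RNA.

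Iigp1, an immunity-related GTPase gene, went from 9.61 to 70.4 CPM (log2 2.87), with 6.59% and 28.2% of members holding a UMI. Psmb9 (log2 1.88) and Psmb8 (1.24), subunits of the immunoproteasome, and Tap1 (1.83), the peptide transporter gene of MHC class I, were higher in CL as well. B2m, the shared light chain gene of class I, went from 220 to 484 CPM (log2 1.14), and H2-K1 from 1023 to 1925 CPM (0.91). Ifi27l2a (2.09), Bst2 (1.35), H2-Q7 (1.64) and H2-Q6 (1.44) completed the highest named genes, of which the last pair are near copies whose reads may be split. Without the MHC class II limit of the rule, 61 genes were at least 2-fold higher in CL.

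Counted by list, 9 of 10 interferon gamma response genes compared were higher in CL, 7 past 2-fold (summed log2 2.01 [1.93, 2.08]). All 8 type I interferon response genes were higher, 4 past 2-fold (1.17 [1.10, 1.25]). All 12 genes of MHC class I and antigen processing were higher, 6 past 2-fold (0.87 [0.85, 0.88]). The low progenitors gave 1.91, 1.04 and 0.97, so the 3 lists were higher in CL in both kinds of cell, by like amounts. Their summed levels in droplets of 100 to 300 UMIs were higher too, by 1.48, 0.59 and 0.43. Over all 7458 genes compared in members the median log2 ratio was -0.02, and 0.536% were past 2-fold higher.

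Milk protein RNA was lower in CL members. All 4 genes compared were lower, with a median log2 ratio of -0.52, beside -0.02 over all genes. Their list sum went from 6043 to 4382 CPM (log2 -0.46 [-0.48, -0.45]). Csn3 contributed most, with log2 -0.45, Trf had -0.49, Lalba -0.56 and Spp1 -1.33. Low progenitors (-0.63) and droplets of 100 to 300 UMIs (-0.54) were lower in the same measure. Leaving out the genes of the gate, the list stood at -0.50 in members.

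The other alveolar lists stayed near 0. Milk fat genes summed to log2 0.01 (4 higher and 8 lower of 12, median -0.06), prolactin, STAT5 and RANK signalling to 0.04 (5 higher and 7 lower of 12, median -0.05), and lactose synthesis and sugar supply to 0.15 (5 higher and 2 lower of 7). None of these genes passed 2-fold. The sums and medians of the first 2 lists differ in sign, and both are within 0.1 of 0. The RNAs that set the members apart from low progenitors did not move as one. Cst3 stood at log2 0.02, Btn1a1 at -0.01 and Folr1 at 0.07, whereas Aqp1 stood at -0.70 [-0.88, -0.52], Apod at -0.72, Clic6 at -0.48 and Lrg1 at -0.38. Slc28a3 went the other way, from 73.7 to 127 CPM (log2 0.79 [0.68, 0.90]), and was higher in CL low progenitors too (0.62).

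The genes with the lowest ratios of all were of low level: Pclaf (165 and 9 UMIs, log2 -3.61, with 66.7% and 77.8% of UMIs in the 5 highest cells), Aoc1 (250 and 17, -3.29, with 256 and 12.3 CPM in droplets of 100 to 300 UMIs) and Fgl2 (193 and 16, -3.01), chosen after their values were seen. The named genes lowest in CL, which had at least 50 CPM in the higher library, were of several kinds. Gpx3, a secreted glutathione peroxidase gene, went from 68.7 to 25.6 CPM (log2 -1.42), and in droplets of 100 to 300 UMIs from 695 to 145 CPM. Adamts1, a metalloprotease gene, was at log2 -1.16, Fxyd2 at -1.12 (droplets of 100 to 300 UMIs 624 and 224 CPM), Ptgs2, the inducible prostaglandin synthase gene, at -1.10 and Slpi at -0.89. Thbs1 went from 699.5 to 349 CPM (-1.0), and the share of members with a UMI from 80.8% to 67.0%.

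Tac1, the gene of substance P, went from 113 to 58.3 CPM in members (log2 -0.95 [-1.08, -0.82]) and from 113.5 to 121 CPM in low progenitors (0.09 [0.01, 0.18]). It was seen in 32.7% and 25.1% of members. Csf1, the macrophage growth factor gene, went from 80.8 to 56.2 CPM in members (-0.52 [-0.66, -0.38]) and from 84.0 to 92.5 CPM in low progenitors (0.14 [0.05, 0.23]). Intervals of the 2 kinds of cell did not overlap for either gene. Csf3, the granulocyte growth factor gene, was higher in CL in both, from 304 to 639 CPM in members (log2 1.07) and by 1.32 in low progenitors.

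As a list, chemokines and colony stimulating factors summed to log2 0.25 in members (3 higher and 3 lower of 6, median -0.05) and 0.63 in low progenitors. The monocyte attractant gene Ccl2 was lower in members (log2 -1.13), but the 5 highest cells held 87.6% of its UMIs in Ctrl and 76.6% in CL. Ccl5, past 2-fold higher, had 49.2% and 40.5% of its UMIs in the 5 highest cells, and Fabp4, an adipocyte and endothelial gene, 16.7% and 89.6%. TNF and NF-kB genes summed to 0.07 (5 higher and 4 lower of 9). Immediate early and heat shock genes, which tissue digestion can induce, summed to -0.07.

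Genes of epithelial defence summed to log2 0.15 (0.27 without the 2 that the gate uses), with Wfdc2, a secreted protease inhibitor gene, at 159 and 347 CPM (1.12; low progenitors 0.47). In droplets of 100 to 300 UMIs Wfdc2 was far higher, at 2425 and 3551 CPM, and the part of free RNA was not tested. Hormone-responsive and basal genes were partly limits of the gate (4 and 3 genes), so their levels are partly set by it. The hormone-responsive list summed to 0.35 (0.60 without gate genes, 0.06 in low progenitors) and the basal list to -0.59 (-0.49 without gate genes). All 4 basal genes compared were lower, gate genes included, beside a median log2 ratio of -0.02 over all genes. Division was rare: Mki67 was seen in 27 Ctrl members (2.5%) and 7 CL members (0.921%), and in 1.98% and 1.23% of low progenitors.

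**Figure D4:**
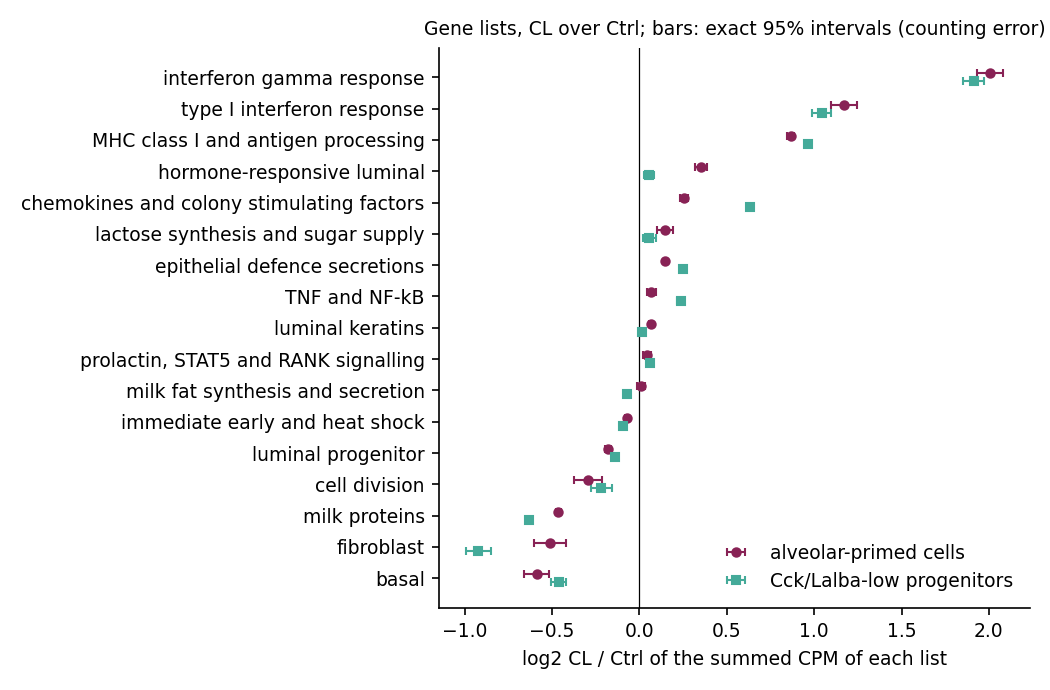
Summed level of each gene list in CL over Ctrl (log2, x axis) in alveolar-primed cells (purple circles) and low progenitors (green squares), with exact 95% intervals of counting error; the vertical line marks no difference. Interferon and MHC class I lists lie to the right in both kinds of cell (2.01, 1.17 and 0.87 in alveolar-primed cells), milk proteins to the left (-0.46), and milk fat, prolactin and lactose lists near the line.

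Markers of other cell types were checked in the members. The 4 macrophage genes together stood at 1.82 CPM in Ctrl and 2.36 CPM in CL, with 5 and 5 UMIs of Csf1r and 1 and 1 of Adgre1 over all members. T and NK cell genes were at 2.20 and 3.77 CPM, endothelial genes at 1.63 and 2.17 CPM and B cell genes at 0.82 and 0.66 CPM, with Cd79b and Ms4a1 at 0. Fibroblast genes were higher, at 201 and 141 CPM, of which Dcn made up 91.5 and 70.6 CPM. Basal genes stood at 319 and 212 CPM and hormone-responsive luminal genes at 818 and 1044 CPM, both partly limited by the gate. RNA of these immune markers was thus near 0 in both libraries. The rule partly sets this as well, since it left out cells with Ptprc or with 5 or more MHC class II UMIs.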

How the data were processed

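Mammary cells of 1 control and 1 CL library were profiled on the 10x 3' platform, with v2 chemistry per the labels. Each matrix lists 6794880 barcodes, the length of the later v3 list, so the chemistry is uncertain. The deposited counts are raw UMIs per gene and barcode, which the authors made with Cell Ranger (2.1.1 and mm10 in the submitters' processing notes, 4 in the file headers). The deposited barcode lists do not index the matrix, so as many barcodes as each list has lines (7217 and 10555) were taken by UMI rank. Counts were summed over cells of a kind and scaled to CPM. A fold change was called past 2-fold with at least 10 CPM and 50 UMIs. Named genes were those of the lists and, at 50 CPM or more and outside the gate, the 10 highest and 10 lowest of each main contrast (5 for Lalba-only or both over Cck-only), leaving out ribosomal, mitochondrial, sex-linked, haemoglobin and unnamed genes. The 24 lists and the members were chosen with earlier results of these data known. Doublets were scored with Scrublet in scanpy 1.11.5. It marked 360 Ctrl cells, and since its own threshold marked 0 in CL, the Ctrl threshold was used there (509 cells). Marked cells stayed in. A few genes are not reported here. Positions come from GENCODE M21. Python 3.11.15, scipy 1.17.1 and edgeR 4.0.16 (TMM factors only) were used, and the ratios, their intervals and the 2-fold call were tested on simulated counts. Alternatives tried were limits of the gate, thinning, doublets, scaling and floors.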

Additional observations from a re-analysis of the deposited data

Results flagged for a closer look

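The 226 listed and named genes outside the gate were searched for CL over Ctrl ratios of opposite direction in alveolar-primed cells and in low progenitors. In 4 of them the intervals of counting error lay on opposite sides of 0, and over all genes compared outside the gate in 57 of 7441. With 1 library per group, the difference between the kinds of cell was not tested. Csf1 had a log2 ratio of -0.52 in alveolar-primed cells and 0.14 in low progenitors. Tac1 had -0.95 and 0.095, Cidea, a lipid droplet protein gene, -0.19 and 0.23, and Cst3 0.019 and -0.24. In alveolar-primed cells Csf1 was seen in 32.5% of Ctrl and 28.3% of CL cells, against 28.2% and 30.2% of low progenitors, and the 5 highest members held 9.49% and 11.2% of its UMIs.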

How the results depend on the processing

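No paired analysis was possible because each group is 1 library. The log2 ratio of the share was -0.77 with at least 1 UMI of Cck and Lalba, -1.22 with at least 5 and -0.82 without the MHC class II limit. Genes past 2-fold in CL members were 655 higher and 1255 lower with a floor of 3 UMIs only, 15 and 7 with a floor of 50 CPM, and 61 higher without the MHC class II limit. Lower genes were 40 with at least 5 UMIs of the pair, 11 without marked doublets and 12 by mean CPM over cells. Genes past 2-fold over low progenitors were 13 higher and 1 lower against cells with 0 UMIs of the pair, and 3 and 0 with the floor of 50 CPM (3 genes: Cck, Cst3 and Lalba). They were 13 and 37 at 3 UMIs per 10000, and 13 and 4 among cells of 6000 to 20000 UMIs, both added after seeing the data. In Lalba-only over Cck-only cells, with at least 5 UMIs (16 and 15 Lalba-only cells), Cst3 was -2.85 in Ctrl and -1.80 in CL and Trf 1.02 in Ctrl. By mean CPM over cells, Cst3 was -1.71 in Ctrl and Trf 0.51 in CL. Of 144 list values under these settings, 137 kept their sign (TNF, milk fat, hormone-responsive and fibroblast lists did not in 1 or 2 settings each). All 180 values of named genes in CL over Ctrl kept it, and the 17 of 20 genes past 2-fold lost that in 11 values. Over low progenitors 479 of 480 kept it, and the 11 of 48 ratios past 2-fold lost that in 3 values. The small count of Lalba-only cells and 1 library per group limit what these values show.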
